A study of Mus musculus with 10 samples.

Results

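Nr4a1, Nr4a2 and Nr4a3 encode the 3 orphan nuclear receptors of the Nr4a family, and the accessible regions around these genes were described in muscle stem cells of young and aged mice after prostaglandin E2 (PGE2). Rows of each deposited peak list that touched or overlapped were merged into regions. A region was taken if its strongest summit, the point of highest significance, lay within 50 kb of the span of one of the genes on mm10 (GRCm38). This rule gave 60 of 131656 regions in young cells and 47 of 117284 in aged cells, 107 of 248940 in all. Of these, 37 young and 34 aged regions lay near Nr4a1, 13 and 7 near Nr4a2, and 10 and 6 near Nr4a3. The farthest young region inside this limit lay 45.5 kb from Nr4a1 (3.70-fold over background), 33.8 kb from Nr4a2 (4.89-fold) and 41.9 kb from Nr4a3 (3.13-fold). The nearest young region outside the limit lay at 52.6 kb (5.63-fold), 57.8 kb (81.3-fold) and 65.4 kb (3.04-fold). The region 57.8 kb from Nr4a2 was stronger than any region inside the limit there and is not counted.

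The assay was ATAC-seq, which reads open chromatin from the places where a transposase can insert, on cells sorted from C57BL/6 mice for the surface proteins α7-integrin and CD34. The labels describe 10 libraries in 4 groups, all held for 2 h in medium with serum and basic fibroblast growth factor: PGE2 and vehicle with 2 libraries each for young mice and 3 each for aged mice. The age of the mice was 8 to 20 weeks in the young groups and 20 to 25 months in the aged groups, and 0.1% DMSO served as vehicle. The values used here were 1 list for young and 1 for aged cells, both after PGE2. The vehicle libraries were not analysed here, and the PGE2 dose and the mice behind each library were not stated in the labels. With 1 list per age there is no replicate error and no p-value, and a difference between ages that exists before PGE2 cannot be told apart from a difference in response. Each list held 1 row per summit, 265507 rows for young and 215838 for aged cells, with folds over background as the authors' caller gave them. The median region was 435 bp wide and 4.89-fold in young cells, and 380 bp and 4.32-fold in aged cells.

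Nr4a proteins are transcription factors whose activity depends mainly on how much of them is made, since no hormone is established as their natural switch. Their genes are immediate early genes, transcribed within minutes to hours of a stimulus without new protein synthesis. In the cAMP pathway, protein kinase A phosphorylates the factor CREB, which binds cAMP response elements (CREs) in promoters such as these. PGE2 raises cAMP through its receptors EP2 and EP4. In skeletal muscle the family is known for roles in fuel metabolism and growth.

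The letters shared by the 3 promoters are shown first, because each promoter lay inside a strong accessible region in both lists. The sequences are those of RefSeq for GRCm38.p6, from 250 bases before to 50 bases after the start site, 5′ to 3′ on the gene's strand. They lie at chr15:101266596-101266895 (plus strand, Nr4a1), chr2:57123954-57124253 (minus strand, Nr4a2) and chr4:48045055-48045354 (plus strand, Nr4a3). Capitals mark every CRE core, TGACG or its reverse complement CGTCA, which is the shorter form of the full CRE TGACGTCA.

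Nr4a1: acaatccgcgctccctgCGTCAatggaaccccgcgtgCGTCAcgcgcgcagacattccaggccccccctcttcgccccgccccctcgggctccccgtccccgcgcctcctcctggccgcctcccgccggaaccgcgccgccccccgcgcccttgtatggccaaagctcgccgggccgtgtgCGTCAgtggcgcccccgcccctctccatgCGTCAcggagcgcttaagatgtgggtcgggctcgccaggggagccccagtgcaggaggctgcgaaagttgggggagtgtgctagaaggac
Nr4a2: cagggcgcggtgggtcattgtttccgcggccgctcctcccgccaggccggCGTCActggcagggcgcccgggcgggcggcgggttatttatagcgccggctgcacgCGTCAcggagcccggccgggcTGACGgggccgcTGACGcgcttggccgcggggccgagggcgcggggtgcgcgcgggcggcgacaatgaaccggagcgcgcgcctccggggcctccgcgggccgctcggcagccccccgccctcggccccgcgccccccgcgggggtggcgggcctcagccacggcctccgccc
Nr4a3: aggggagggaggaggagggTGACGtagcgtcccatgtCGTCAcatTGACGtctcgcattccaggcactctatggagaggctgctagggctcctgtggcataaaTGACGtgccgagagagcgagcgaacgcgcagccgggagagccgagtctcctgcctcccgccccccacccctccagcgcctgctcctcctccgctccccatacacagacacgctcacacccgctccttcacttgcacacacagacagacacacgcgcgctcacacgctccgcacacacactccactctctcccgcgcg

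Each of the 3 promoters held 4 CRE cores and 0 full CREs. In Nr4a1 the cores began 233, 213, 69 and 40 bases before the start site, and all 4 read CGTCA on the gene's strand. In Nr4a2 they began at 200, 144, 123 and 111 bases, a pair in each orientation. In Nr4a3 they began at 231, 213, 205 and 147 bases, with 3 as TGACG and 1 as CGTCA, and 3 of the 4 lay in one short cluster. Of 21263 promoters of protein-coding genes, 5021 (23.6%) held at least 1 core and 69 (0.325%) held 4 or more. Those 69 belonged to 62 genes. A full CRE counts as 2 cores because it reads the same on both strands. GC content was 72.3% in Nr4a1, 81.7% in Nr4a2 and 64.7% in Nr4a3, against a median of 56.3%. Among the 5373 promoters with at least the GC content of Nr4a3, 33 (0.614%) held 4 or more cores. A match is a description of letters and does not show binding.

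**Figure D1:**
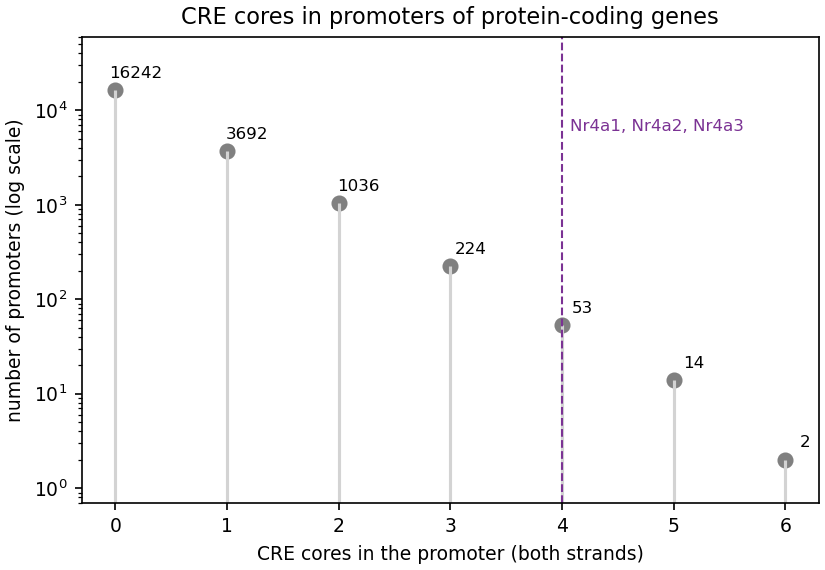
Number of promoters of protein-coding genes (vertical axis, log scale) by number of CRE cores found on both strands in the 300 bases of the promoter (horizontal axis). Most promoters (16242) held 0 and 53 held exactly 4, among them Nr4a1, Nr4a2 and Nr4a3 (dashed line).

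Other motifs were sparse in the 3 promoters. The Nr4a2 promoter held a TATA box (TATAAA, in 12.6% of promoters) that began 164 bases before the start site on the opposite strand. It overlapped a match to the MEF2 site (in 2.74% of promoters), the element of a factor family known for muscle genes. No match was found in any of the 3 for the NBRE (AAAGGTCA, in 1.30%), the element that Nr4a proteins bind themselves, for the AP-1 site (TGANTCA, in 6.99%) or for the CArG box of serum response factor (in 1.52%). Both strands were searched. Of the 3 members only Nr4a2 thus had a match other than CRE cores among the motifs searched.

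All 3 genes had an accessible region at the start site in both lists. Among all protein-coding genes with a start site in the reference, 65.7% had such a region in young cells and 63.6% in aged cells. At Nr4a1 the strongest summit within 1 kb of the start site was 89.1-fold over background in young cells and 71.3-fold in aged cells. At Nr4a3 the values were 82.3 and 55.5, and at Nr4a2 65.5 and 38.2. The caller's background was 1 uniform level per list, so each fold could be turned back into a fragment pileup with a 95% Poisson interval. In young cells the intervals were 85.3 to 93.1 for Nr4a1, 78.6 to 86.1 for Nr4a3 and 62.3 to 69.0 for Nr4a2. The intervals of Nr4a1 and Nr4a3 overlapped, and that of Nr4a2 lay below both. In aged cells the intervals, 67.7 to 75.0, 52.3 to 58.8 and 35.5 to 40.9, did not overlap, and the order was the same. These intervals cover counting error only, not PCR duplicates or mice. They take each count of the pileup as an independent fragment. How the caller counted reads is not given, so the intervals may be too narrow. Folds were compared within a list and not between the lists, whose depth is unknown. In bulk chromatin, fewer cells with an open site and a site less open in each cell cannot be told apart.

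The start-site summits were placed against the CRE cores printed above. The Nr4a1 summit lay 7 bp upstream of the start site in young cells and 27 bp upstream in aged cells, 31 and 11 bp from the middle of the nearest core. For Nr4a2 the summits lay 145 and 245 bp upstream, 3 and 47 bp from the nearest core. For Nr4a3 they lay 196 and 190 bp upstream, 7 and 13 bp from the nearest core. The Nr4a3 summits were 6 bp apart and lay between the cluster of 3 cores and the core nearest the start. With 4 cores in 300 bases such distances are a description only. The accessible region at the Nr4a2 start also covers the start of a predicted gene on the same strand, LOC105244150 (chr2:57123334-57124694), so openness there cannot be assigned to Nr4a2 alone.

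**Figure D2:**
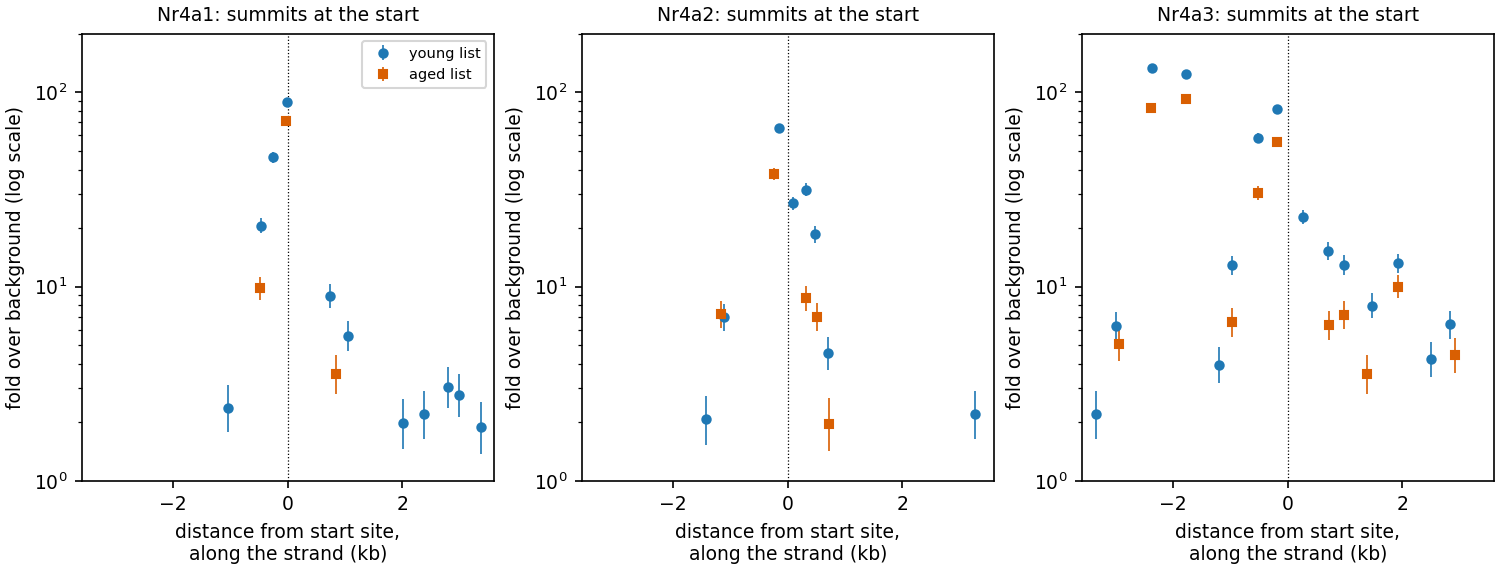
Fold over background (vertical axis, log scale) of every summit within 3.5 kb of the start site, against distance along the gene's strand (kb), for the young list (circles) and the aged list (squares), with bars for 95% Poisson counting intervals. The highest Nr4a1 and Nr4a2 summits sit just upstream of the start, while Nr4a3 has a pair of higher summits about 2 kb upstream.

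Nr4a3 had the highest summits of the 3 loci, upstream of its promoter. The gene lies on chromosome 4 (48045078 to 48086447) with its start site at 48045305. In young cells a single region of 6268 bp (48042115 to 48048382) with 14 summits ran across the start. Its strongest summits lay 2374 bp upstream, at 133.7-fold, and 1779 bp upstream, at 124.3-fold. In aged cells the summits of this pair lay 2390 bp upstream, at 83.2-fold, and 1776 bp upstream, at 91.9-fold. The upstream summit of the pair was thus the higher one in young cells and the lower one in aged cells. The interval of the young summit at 133.7-fold was 128.98 to 138.5 and that at 124.3-fold 119.7 to 128.94, so they nearly touched. In aged cells they were 79.4 to 87.3 for the farther summit and 87.9 to 96.1 for the nearer one. The aged list held the same stretch as 3 regions of 1860, 3545 and 447 bp. Of 17492 protein-coding genes with a start site in the reference, 95.9% had a lower start-site region than Nr4a3 in young cells and 86.3% in aged cells. The aged value refers to the start-site piece alone, because the upstream pair was a separate region there.

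The rest of the Nr4a3 neighbourhood held few regions. One region lay 6.74 kb upstream of the start site (5.77-fold in young cells, 3.46-fold in aged cells). Another lay past the end of the gene, 62.2 kb downstream of the start (10.1-fold and 7.26-fold). The region at 48124149 to 48125603 (43.8-fold and 27.7-fold) covered the start of Stx17, which encodes a syntaxin of autophagosome fusion. Inside the gene beyond the start-site region the young list held 3 weak regions, of 1.98-fold to 3.35-fold. The aged list held none there other than the 447-bp piece of the start-site stretch, at 4.42-fold. The other 3 young regions lay upstream, at 2.20-fold to 3.13-fold, with no aged overlap.

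At Nr4a1 the strongest summit was not at the promoter but 20.3 kb upstream of the start site. The gene spans 101253902 to 101274795 on chromosome 15, and the start site used here lies at 101266846 because the span includes predicted transcripts. The upstream region (101245817 to 101248739 in young cells) reached 91.2-fold in young cells and 74.9-fold in aged cells, with the strongest summit at the same base in both. It lay outside every gene span and away from any start site. The promoter values were 89.1 and 71.3, and the counting intervals of the upstream region, 87.3 to 95.2 (young) and 71.2 to 78.7 (aged), overlapped those of the promoter. Further regions of over 20-fold in both lists and away from other gene starts lay 12.8 kb and 6.24 kb upstream, at 31.2-fold and 32.0-fold in young cells and 20.6-fold and 27.4-fold in aged cells. Their summits lay inside the gene span, ahead of the start site used here. The region 12.8 kb upstream (101253222 to 101254828 in young cells) also covered the first base of the Nr4a1 span in both lists.

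Several regions near Nr4a1 lay at or within 1 kb of starts of other genes. The region at the start of Grasp, which encodes a scaffold protein of the cell membrane, reached 64.0-fold in young cells and 33.7-fold in aged cells. This region also covers the start of the long noncoding RNA A330009N23Rik. The region at the start of Atg101, which encodes a subunit of the complex that starts autophagy, reached 47.7-fold and 30.4-fold. A region within 1 kb of the start of the long noncoding RNA AU021063, but not over it, reached 29.98-fold and 17.3-fold. It lay inside the span of A330009N23Rik as well. Acvr1b, an activin receptor gene, overlaps the window with its far end only. The small protein gene Smim41 and the long noncoding RNA Gm41403 had regions in young cells only, at 1.80-fold and 2.64-fold.

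**Figure D3:**
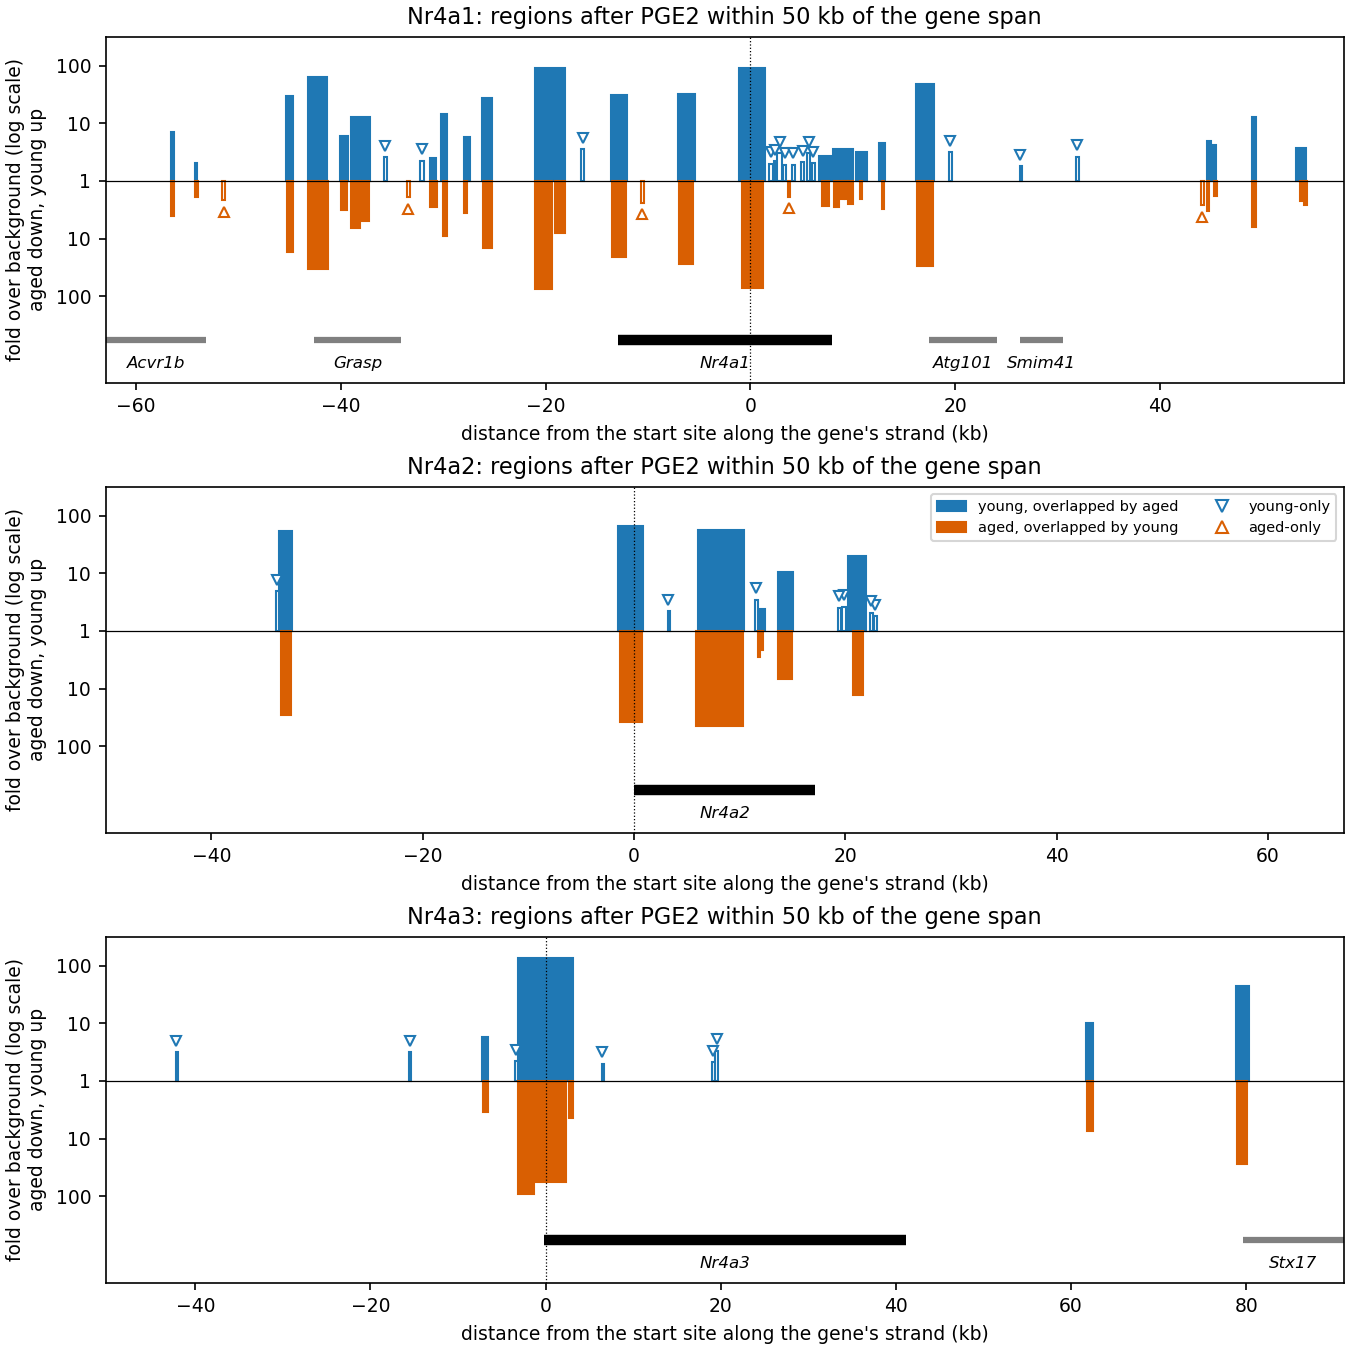
Regions within 50 kb of each gene span, drawn against distance from the start site along the gene's strand (kb), with height as fold over background on a log scale that starts at 1, young upwards and aged downwards. Filled bars without a triangle are overlapped in the other list, triangles mark regions of one list only, very narrow regions are widened to 0.25 kb, and black and grey bars are gene spans (predicted and noncoding neighbours are not drawn). Nearly all tall bars have a partner in the other list, and the triangles sit on short bars.

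Nr4a1 also had a run of weak regions along the transcribed part and past its end. From the edge of the start-site region to 4 kb past the end of the span, the young list held 11 regions covering 6.49 kb and the aged list 7 covering 2.43 kb. Their folds ran from 1.89 to 3.52 in young cells and from 1.87 to 2.79 in aged cells. The smallest folds of the lists were 1.76 and 1.83, and the median regions reached 4.89 and 4.32. Inside the span 9 of the young and 2 of the aged regions lay in this run. Of the 11 young regions, 8 were not overlapped by an aged region, and of the 7 aged regions 1 was not overlapped by a young one. From start site to gene end, start-site region included, 61.4% of the bases were covered in young cells and 26.3% in aged cells. Of 13340 genes with a single start site and at least 1000 bp from there to the gene end, 97.3% had less cover in young cells and 92.9% in aged cells, with medians of 4.35% and 2.97%. The caller's background was 21.7 fragments for young and 19.8 for aged cells, and the part of depth in this difference was not tested.

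Nr4a2 had a wide region inside the gene that was nearly as strong as its promoter. The gene lies on the minus strand of chromosome 2 (57106830 to 57124003). The inner region, 4433 bp wide in young cells and 4378 bp in aged cells, had 9 summits in each and its strongest summit 7.11 kb and 7.13 kb downstream of the start. It reached 55.9-fold in young cells, below the promoter at 65.5, and 44.8-fold in aged cells, above the promoter at 38.2. Its counting intervals, 52.9 to 59.1 (young) and 42.0 to 47.8 (aged), did not overlap those of the promoter in the same list, and the order of the pair was opposite in the 2 lists. A region 33.0 kb upstream (57156384 to 57157615), inside the span of the long noncoding RNA BB557941, reached 53.5-fold and 28.3-fold. Its strongest summits were 3 bp apart. A region past the end of the gene, 21.3 kb downstream of the start, reached 20.3-fold and 13.1-fold with summits 1 bp apart. One more inside the gene, 14.5 kb downstream, reached 10.7-fold and 6.78-fold. From start to end 45.2% of Nr4a2 was covered in young cells and 40.1% in aged cells, more than in 95.1% and 96.3% of genes.

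**Figure D4:**
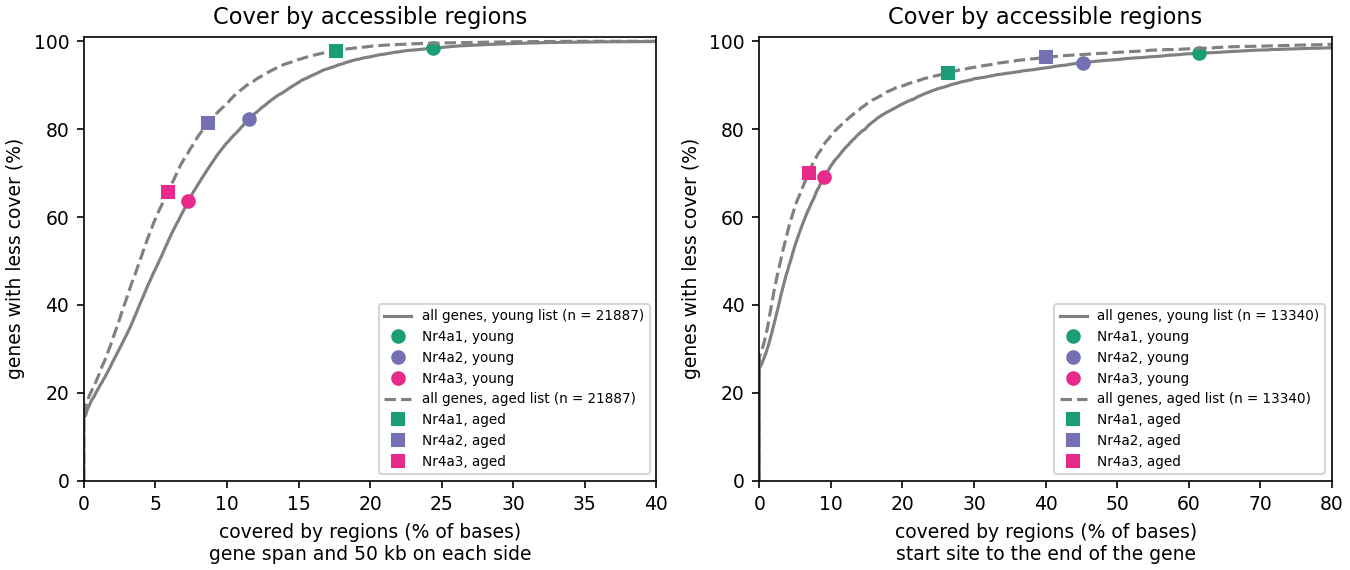
Share of genes with less cover (vertical axis, %) against the share of bases covered by regions (horizontal axis, %), for the gene span with 50 kb on each side (left) and from start site to gene end (right), with grey lines for all protein-coding genes (solid young, dashed aged), circles for the young list and squares for the aged list. Nr4a1 lies above 97% of genes in both lists on the left, and Nr4a3 lies lowest of the 3 in both panels.

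The 3 neighbourhoods differed in how crowded they were. Regions covered 24.4% of the Nr4a1 window, the span and 50 kb on each side, in young cells and 17.6% in aged cells, more than in 98.4% and 97.9% of genes. For Nr4a2 the cover was 11.5% and 8.66%, more than in 82.2% and 81.3% of genes. For Nr4a3 it was 7.30% and 5.85%, more than in 63.6% and 65.6%. The medians over all 21887 genes were 5.27% and 3.92%. Of the regions near the 3 genes, 19 of 60 in young cells and 15 of 47 in aged cells reached 10-fold, where 29.0% of all young and 25.4% of all aged regions did. Their median fold was lower than that of all regions, at 3.50 against 4.89 in young cells and 3.99 against 4.32 in aged cells.

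The share of young regions with no aged counterpart was higher near these genes than over the whole young list, except among strong regions, where the shares were close. A region was called young-only or aged-only if no base of it was overlapped in the other list. Near the 3 genes 27 of 60 young regions were young-only (45%, 95% exact binomial interval 32.1 to 58.4), where 28.2% of all young regions were. The 60 had a lower median fold than the whole young list (3.50 against 4.89), and the part of this in the share was not tested. By gene the counts were 14 of 37 for Nr4a1, 7 of 13 for Nr4a2 and 6 of 10 for Nr4a3. The intervals per gene, 22.5 to 55.2, 25.1 to 80.8 and 26.2 to 87.8, each took in the 28.2% of all young regions. Of the aged regions 5 of 47 were aged-only (10.6%, 3.55 to 23.1), against 10.7% of all aged regions. The aged share depended on what counts as a counterpart. It was 46.8% (32.1 to 61.9) against 28.2% of all with strongest summits within 100 bp, and 44.7% (30.2 to 59.9) against 33.9% with a reciprocal overlap of 50%. All 5 aged-only regions lay near Nr4a1. The count of 0 aged-only regions near Nr4a2 and Nr4a3 allows, by the limit of 3 counts, a share of up to 42.9% of 7 and 50% of 6. The exact binomial upper limits were 41.0% and 45.9%. Neighbouring regions are not independent, and 8 of the 27 came from the run inside Nr4a1, and the interval takes no account of this. Among the strongest regions of each list in equal number, 4 of 23 young regions (17.4%) had no overlap, as did 0 of 23 aged ones, against 15.4% and 11.1% of all regions so chosen. The interval of the young share was then 4.95 to 38.8. The interval took in the share of all young regions in 4 of the 8 alternatives run, that one included.

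The young-only regions near the Nr4a genes were weak and narrow. Their median was 2.24-fold and 200 bp, against 12.9-fold and 1069 bp for the young regions with an overlap. Over the whole young list the same medians were 2.73-fold and 220 bp against 7.57-fold and 629 bp, so this was a feature of young-only regions in general. The strongest, at 4.89-fold, lay 33.8 kb upstream of Nr4a2, beside the shared region described above. It stood at the 49.8th percentile of the young list, so 0 of the 27 lay above the median of their list, where 5.41% of all young-only regions did. The 5 aged-only regions ran from 1.87-fold to 2.64-fold. By length young-only regions made up 12.0% of the bases covered near the 3 genes, against 10.7% over the whole young list, and aged-only regions 2.52% against 3.90%. An aged region lay within 1 kb of 11 of the 27 young-only regions, and of 32.6% of all young-only regions. No start-site region of a member was found at one age alone. This was rare in general. Of 17492 genes with a start site in the reference, 438 had such a region in young cells alone and 64 in aged cells alone.

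**Figure D5:**
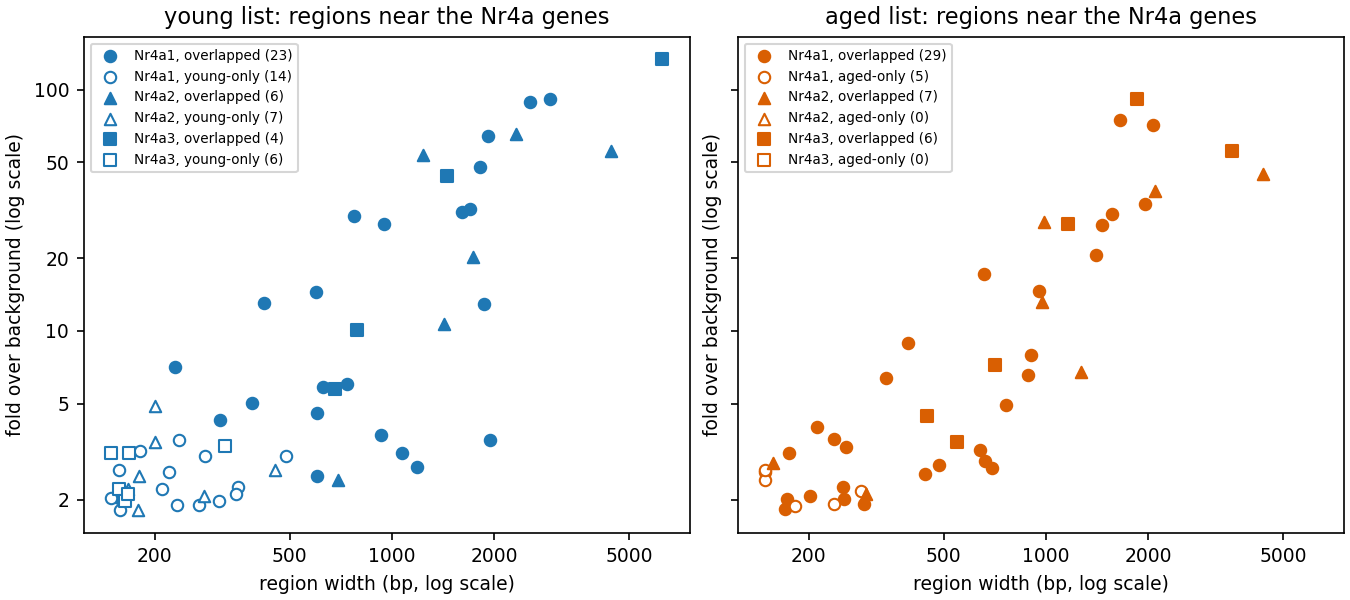
Fold over background against region width (both log scales) for each region near the Nr4a genes in young cells (left) and aged cells (right), with filled symbols for regions overlapped in the other list, open symbols for the rest, and the number of regions in the legend. The open symbols lie below 5-fold in both panels, and all regions of 10-fold or more are filled.

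Most strong summits had a close counterpart in the other list, here as over the whole lists. Of the 44 young summits of at least 10-fold near the 3 genes, 40 had an aged summit within 100 bp, and of the 28 aged ones 26 had a young summit that near. The shares without one were 9.09% (young) and 7.14% (aged), against 6.06% and 2.95% of all summits of that height. The median distance to the nearest summit of the other list was 9.5 bp (young) and 10 bp (aged) for these summits, and 10 bp and 9 bp over all summits of that height. With weak summits included, 64 of 146 young summits had no aged summit within 100 bp, where 35.2% of all young summits had none. For the aged summits the count was 24 of 106, where 20.2% of all had none. Near Nr4a3 all 17 aged summits had a young summit within 100 bp.

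The other genes of the cAMP pathway were mostly open at both ages as well. A gene end was called open if a region touched the 1 kb on either side of it, which held for 66.5% of protein-coding genes in young cells, 63.8% in aged cells and 63.3% in both. All 3 Nr4a genes had an open end in both lists. Of 25 early target genes of cAMP and CREB, 24 had one in both lists and 1, the phosphodiesterase gene Pde4d, in neither. Within 50 kb of the Pde4d span there were 167 young and 139 aged regions, the strongest at 73.9-fold and 65.1-fold. Rgs2, which encodes a brake on G protein signalling, reached 168-fold in young cells and 115-fold in aged cells. The transcription factor gene Egr1 reached 188-fold and 89.2-fold, and Crem, which encodes a CREB relative, 162-fold and 90.3-fold. Cited2, which encodes a partner of CREB-binding protein, reached 141-fold and 77.8-fold. All 12 genes for CREB factors, their coactivators and protein kinase A were open in both lists, among them Prkaca (189-fold and 114-fold), Creb1 (172-fold and 99.2-fold), Atf2 (112-fold and 67.7-fold) and the coactivator gene Crtc2 (110-fold and 70.2-fold). Folds of gene ends are those of the strongest summit of the region.

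CRE cores were found in 17 of the 20 early target genes that had a promoter in the reference, and in 26.2% of all genes with one. A count of 4 or more was found in 0 of the 20, and Areg and Dusp1 held 3. Areg encodes a growth factor of the EGF family and Dusp1 a phosphatase that switches off MAP kinases. Full CREs were found in Areg, Btg2, Dio2 and Dusp1. The list was made of genes known to respond to cAMP, so its share is no independent evidence.

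Young-only regions made up 227 of 778 young regions (29.2%) near the early targets and 78 of 288 (27.1%) near the CREB genes. Aged-only regions made up 6.88% and 7.45%. The shares over the whole lists were 28.2% young-only and 10.7% aged-only. No test of the difference was possible with 1 list per age.

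Among other nuclear receptor genes, 31 of 42 had an open gene end at both ages and 10 at neither. The remaining 1, open in aged cells alone, was Nr2e3, a receptor gene of photoreceptor cells, at 8.17-fold. This aged region was overlapped by a young region that did not reach the 1 kb window. With windows of 500 or 2500 bp, 0 of the 42 genes were open in a single list. At 1 kb, 13855 of all 21887 protein-coding genes (63.3%) were open in both lists and 7226 in neither. In young cells alone 701 were open, and in aged cells alone 105. Among the 10 genes without an open end, Rarb had a start-site region in both lists (65.8-fold and 52.1-fold), as had Esrrb, Pgr and Nr5a2 at lower folds. Nr3c2, the mineralocorticoid receptor gene, reached 220-fold in young cells and 149.98-fold in aged cells, Nr1d2, a repressor of the circadian clock, 176-fold and 128-fold, and Nr2c2 153-fold and 92.9-fold. None of the 36 with a promoter in the reference held 4 CRE cores, and Nr2e1 held 3. Near these genes young-only regions made up 170 of 738 (23.0%), against 28.2% of all young regions, and aged-only regions 96 of 739 (13.0%), against 10.7% of all aged regions. The retinoid X receptors, with which Nr4a1 and Nr4a2 form pairs, were open in both lists, at 59.3-fold and 34.4-fold for Rxrb, 29.8-fold and 11.8-fold for Rxrg (66.5-fold and 36.9-fold at its start site), and 15.6-fold and 9.27-fold for Rxra. An NBRE was found in 2 of these 3 promoters.

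The genes most like each member were sought over 6 measures from the 2 lists, namely the number of regions within 50 kb, the strongest fold within 50 kb and the gene-end fold in each list. For Nr4a1 they were Hpn, Chrdl2 and Ahnak, at distances of 0.32 to 0.39 on the log2 scale. For Nr4a2 they were the overlapping LOC105244150, Gm33851 and Nufip2 (0 to 0.22), and for Nr4a3 Fam53a, Ubn2 and Cdkl2 (0.50 to 0.51). The members were farther from each other, at 1.88 between Nr4a2 and Nr4a3, 3.03 between Nr4a1 and Nr4a2, and 3.90 between Nr4a1 and Nr4a3. For Nr4a1 the gene ends of the span miss the start site, so its gene-end fold (31.2 for young cells) is that of the region 12.8 kb upstream.

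The labelled cell type was checked against markers. All 9 muscle stem cell markers had an open gene end in both lists, among them Pax7 (26.7-fold and 16.6-fold), Myf5, Itga7, Cd34 and Calcr. Among the immune markers Cd68 was open, and Ptprc, Itgam, Cd3e and Csf1r had no gene-end region in either list. Of 5 endothelial markers Tek and Kdr were open in both lists, Cdh5 in young cells alone (1.98-fold) and Pecam1 and Tie1 in neither. Fibroblast, smooth muscle, glial and mature fibre markers were open in both lists for 3 of 4, 3 of 3, 2 of 3 and 3 of 4 genes. The rest were the fibroblast marker Ly6a, open in aged cells alone (2.499-fold), and the glial marker Sox10 (2.95-fold) and the fibre marker Myh4 (4.27-fold), open in young cells alone. Over all protein-coding genes 63.3% had an open gene end in both lists, so these counts separate cell types poorly. An open gene end does not show expression, and the part of other cells in the regions near the Nr4a genes was not tested.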

How the data were processed

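ATAC-seq regions of muscle stem cells were taken from 2 peak lists in the narrowPeak layout, deposited by the authors for young and aged cells after PGE2. The submitters' processing notes name Bowtie2 and the builds mm10 and GRCm38. How the peak caller was set, which reads were filtered or shifted and which libraries were pooled is not given in the sources used here. Each summit's fold ratio, −log10 q-value and display score were deposited by the authors. All folds were whole multiples of 1 step within 0.02 steps, which gives a uniform background of 21.7 (young) and 19.8 (aged) counts of pileup, read here as fragments. Library depths are unknown.

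Rows were merged with Python 3.11.15 and pandas 2.3.3, and an overlap of 1 bp counted as shared. Overlap and distance counts were tested on 5000 simulated regions. Intervals are at 95%, exact binomial over regions (Clopper-Pearson) or Poisson over pileups, and the limit of a count of 0 is 3 counts. Gene spans, start sites and promoters came from RefSeq tables of GRCm38.p6. All listed genes were found by symbol, and 17492 of 21887 protein-coding genes had a start site. The members and the 11 gene lists were chosen with earlier results of these data known. Named genes were the members, protein-coding neighbours, up to 4 genes of each pathway list (open at one age first, then highest in the aged list), the 3 most like genes and markers. Others named (AU021063, A330009N23Rik, Gm41403, BB557941, Pde4d, Rarb, Esrrb, Pgr, Nr5a2, genes with CRE cores) were chosen after their values were seen. One immune marker is not reported here.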

Additional observations from a re-analysis of the deposited data

How the results depend on the processing

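The share of young-only regions near the Nr4a genes (45%) was above that of all young regions as a point value in each of the 8 alternatives, from 17.4% against 15.4% among the 58642 strongest regions of each list to 58.3% against 36.0% with strongest summits within 100 bp. In 4 of the 8 the 95% interval took in the share of all young regions. These were the strongest regions (4.95 to 38.8), rows of −log10 q of at least 5 (38.8%, 25.2 to 53.8, against 28.0%), a limit of 100 kb (38.3%, 27.7 to 49.7, against 28.2%) and rows merged across gaps of up to 200 bp (33.3%, 20.4 to 48.4, against 25.9%). The aged-only share (10.6%) was 0% among the strongest regions in equal number, 44.7% with a reciprocal overlap of 50% and 46.8% with strongest summits within 100 bp, where all aged regions gave 11.1%, 33.9% and 28.2%. The last 2 settings count a split or shifted region as unmatched. Leaving out regions at starts of other genes, an alternative chosen after seeing the data, gave 46.3% and 11.6%. All 3 Nr4a genes kept an open gene end in both lists with windows of 500 bp, with windows of 2500 bp and around start sites (the last chosen after seeing the data). The number of regions near a gene moved by over 1.5 times in 6 of 24 cases, 4 of them among the strongest regions. Of 36 counts of open genes per list 5 moved that far, all in marker lists and 4 of them around start sites, where a gene with no start site in the reference counts as closed. No paired analysis was possible because each age has 1 list with no value per library. For the same reason no library could be left out. Unknown depth limits every comparison of heights between the lists.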

Other observations

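The promoters with as many CRE cores as the Nr4a genes belonged to genes with open start sites. Openness and fold were taken per gene, as the strongest region at any of its start sites. Promoters of the same gene therefore repeat the same value. All 69 promoters with 4 or more cores, the Nr4a promoters included, belonged to genes with a start-site region in both lists. Of all 21263 promoters 66.7% did. The share was 61.2% with 0 cores, 82.0% with 1, 90.6% with 2 and 96.0% with 3. The median start-site fold was 14.9 (young) and 8.82 (aged) with 0 cores, and 65.5 and 38.3 with 4 or more. GC content moved with the number of cores, from a median of 54.7% with 0 to 64.0% with 4 or more. Among promoters with at least the GC content of Nr4a3 the open share ran from 93.3% with 0 cores to 100% of 33 with 4 or more. The median fold there was 49.5 (young) and 30.3 (aged) with 0 cores, 56.5 and 35.4 with 1, 66.4 and 40.7 with 2, 67.0 and 45.7 with 3, and 61.8 and 38.2 with 4 or more, below the medians with 2 or 3. Genes of this kind outside the Nr4a family, picked after their values were seen, were Coq10b, a coenzyme Q gene (203-fold young and 159-fold aged), Ing3, a chromatin factor gene (216-fold and 118-fold), and Rab5a, an endosome gene (168-fold and 117-fold). Some of these promoters share a start region with a neighbouring gene, such as Cope and Ddx49, so they are not independent.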
